A study of Mus musculus with 24 samples.

Results

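The genes described here are 39 interferon-stimulated genes, read from the 24411 genes of a count table of mouse hippocampus RNA-seq by their symbols, and all 39 had counts. They were followed across 6 groups of mice, whose strain field read C57/B6 throughout. The aging model held wildtype control mice of 9 months (young) and 20 months (old), and wildtype mice of 20 months given Nanoligomer (Old-Nano), with 4 libraries in each group. Libraries carry the letter and number of their labels. The tauopathy model held littermate controls (LM, 4 libraries), untreated rTg4510 mice (3 distinct libraries) and rTg4510 mice given Nanoligomer (rTg4510-Nano, 4 libraries), all 3 months old. Nanoligomers are synthetic antisense molecules, and the mixture used was designed against the inflammatory regulators NF-κB (Nfkb1) and NLRP3 (Nlrp3). It was injected repeatedly into the abdomen over 1 month. rTg4510 mice carry a human mutant tau transgene that is driven in forebrain neurons, so that the model has tau pathology in the forebrain and not in all brain cells. The genotype field of the LM mice also read rTg4510, while their other labels called them littermate controls, and they were used as such. The columns named rTg4510 M2 and M3 were identical and were counted as 1 library, M2.

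Interferons are secreted proteins that warn cells of infection. Type I interferons bind the receptor Ifnar1 and Ifnar2, the kinases Jak1 and Tyk2 then phosphorylate transcription factors such as Stat2, and a complex that holds Stat2 and Irf9 enters the nucleus and switches on interferon-stimulated genes. Interferon gamma acts through its own receptor. The induced genes encode sensors of viral RNA, transcription factors that amplify the response, and proteins that block steps of viral growth. In the brain, microglia are the cells best known for this response, and endothelial and choroid plexus cells also mount it. In whole tissue, a change in the number of cells of a type and a change in the RNA per cell cannot be told apart.

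The complex that holds Stat2 and Irf9 recognizes an interferon-stimulated response element, whose core was searched here as GAAANNGAAA or, on the other strand, TTTCNNTTTC. RefSeq promoters (GRCm38.p6), each of 300 bases around a gene start, were found for 31 of the 39 genes. A match was present in 18 of these 31 (58.1%), against 1079 of all 27025 genes with a promoter (3.99%). Shown here are stretches of 80 bases, written 5′ to 3′ along the gene, from members on which the results turn and from Isg15, the classical ubiquitin-like member. Capitals mark the matches to the response element, which overlap in Bst2, Irgm1 and Isg15.
Bst2 (chr8:71537555-71537634, minus strand): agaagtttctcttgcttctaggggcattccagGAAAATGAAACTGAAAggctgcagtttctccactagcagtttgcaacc
Ifit3 (chr19:34583355-34583434, plus strand): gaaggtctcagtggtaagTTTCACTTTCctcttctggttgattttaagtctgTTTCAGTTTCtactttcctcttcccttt
Gbp2 (chr3:142620569-142620648, plus strand): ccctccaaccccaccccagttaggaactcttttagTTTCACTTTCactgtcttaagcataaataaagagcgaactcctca
Igtp (chr11:58199476-58199555, plus strand): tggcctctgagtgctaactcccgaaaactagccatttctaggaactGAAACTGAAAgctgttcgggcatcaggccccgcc
Irgm1 (chr11:48871421-48871500, minus strand): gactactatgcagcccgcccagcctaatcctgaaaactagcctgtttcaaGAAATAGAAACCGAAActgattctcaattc
Isg15 (chr4:156200846-156200925, minus strand): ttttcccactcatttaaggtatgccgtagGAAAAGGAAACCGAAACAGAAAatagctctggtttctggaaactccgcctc
Lgals3bp (chr11:118401960-118402039, minus strand): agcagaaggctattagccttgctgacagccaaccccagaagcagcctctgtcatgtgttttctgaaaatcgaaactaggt

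Lgals3bp is shown because it moved beside Bst2 in the tauopathy model, and the core as searched had no match in its 300 bases. Cores that differ from the searched one were not tried, so that a response element in Lgals3bp is not excluded. In old against young mice the median log2 fold change was 0.53 over the 18 members with a match to this core. It was 0.59 over the 12 tested members without one.

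Libraries held from 17214974 to 27424344 counts, and the 39 genes took from 0.0162% to 0.0457% of them. Levels are given as counts scaled to a common library size with TMM (CPM). Most members were weakly expressed. Per kilobase of exon, the median level over libraries was highest for Ifi27 (12.9 CPM per kilobase), Ifitm3 (12.2) and Ifitm2 (11.2). Mx1, whose protein is defective in many laboratory strains, had no count in 4 libraries, and Oasl1 had none in 2. A count of 0 allows up to 3 counts, or 0.174 CPM in the shallowest library, which covers counting error only. Hippocampal neuron markers were present in every library, from 1350 to 8437 CPM in sum. They were lowest in rTg4510-Nano M2 (hypothalamus markers at 348 CPM) and young M4 (olfactory bulb markers at 1651 CPM). The RNA of the treatment's own targets was not called in either comparison of treated with untreated mice. The paper reports less NF-κB and NLRP3 protein in the hippocampus of old mice shortly after a single injection. RNA levels after the longer treatment do not test this. Nfkb1 differed by 0.14 ± 0.143 (log2 fold change ± SE) in Old-Nano against old mice and by -0.037 ± 0.198 in rTg4510-Nano against rTg4510 mice, and Nlrp3 by 0.32 ± 0.395 and -0.0013 ± 0.339. Mouse gene symbols do not resolve the human transgene, and Mapt, the mouse tau gene, differed by 0.15 ± 0.0881 between rTg4510 and LM mice.

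**Figure D1:**
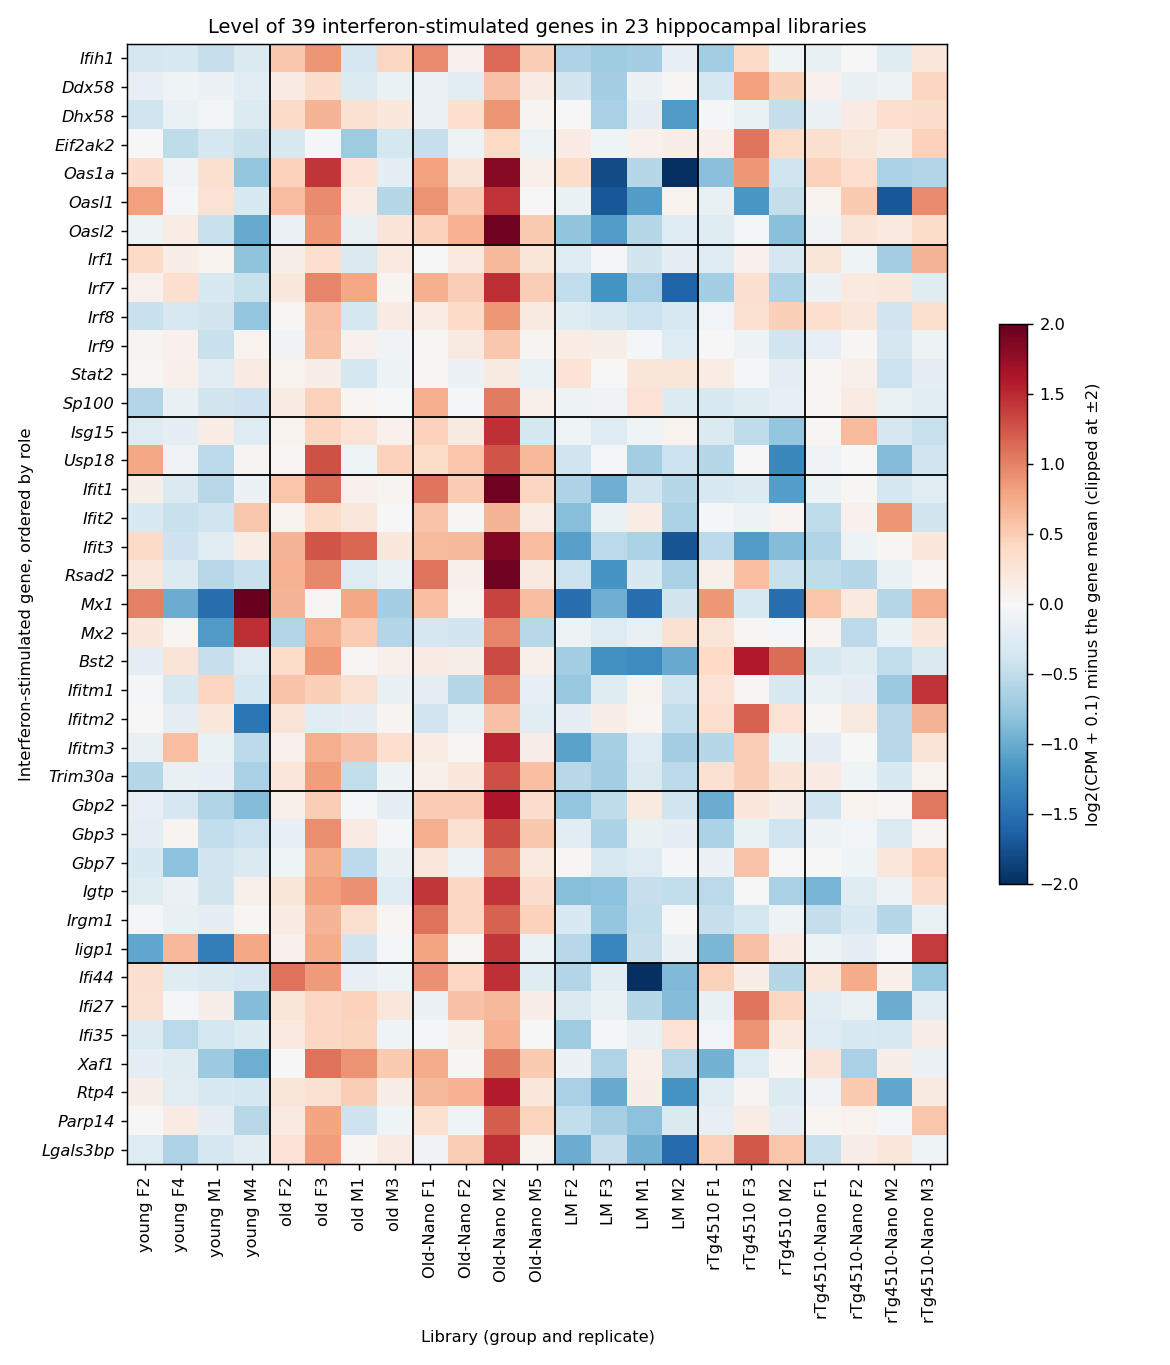
Level of each interferon-stimulated gene (rows, ordered by role) in each of 23 libraries (columns, by group), as log2(CPM + 0.1) minus the mean of that gene, clipped at ±2 in the colours. Old-Nano M2 was the highest library for 24 of the 39 genes, and old F3 was the highest old library for 31.

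The summed level of the 39 genes gives their order over the groups. It was lowest in LM mice, at 167 to 184 CPM, and then in young mice, at 183 to 210 CPM. In rTg4510-Nano mice it ran from 193 to 244 CPM, in rTg4510 mice from 206 to 308 CPM and in old mice from 226 to 329 CPM. Old-Nano mice had 245, 255, 267 and 456 CPM, the last in library M2. The ranges of old and young mice did not overlap, nor did those of LM mice and either rTg4510 group, while old overlapped with Old-Nano mice and rTg4510 with rTg4510-Nano mice. In several groups 1 library set the upper end. Old-Nano M2 was the highest of its group for all 39 genes and the highest of the aging model for 34. Microglia markers, 12 of 12 detected, were also highest in Old-Nano M2 within its group, with a sum of 985 CPM against 499 to 717 CPM in the other Old-Nano libraries. In old mice they were highest in F3, with 801 CPM against 406 to 680 CPM. Their part in the level of the members was not tested.

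**Figure D2:**
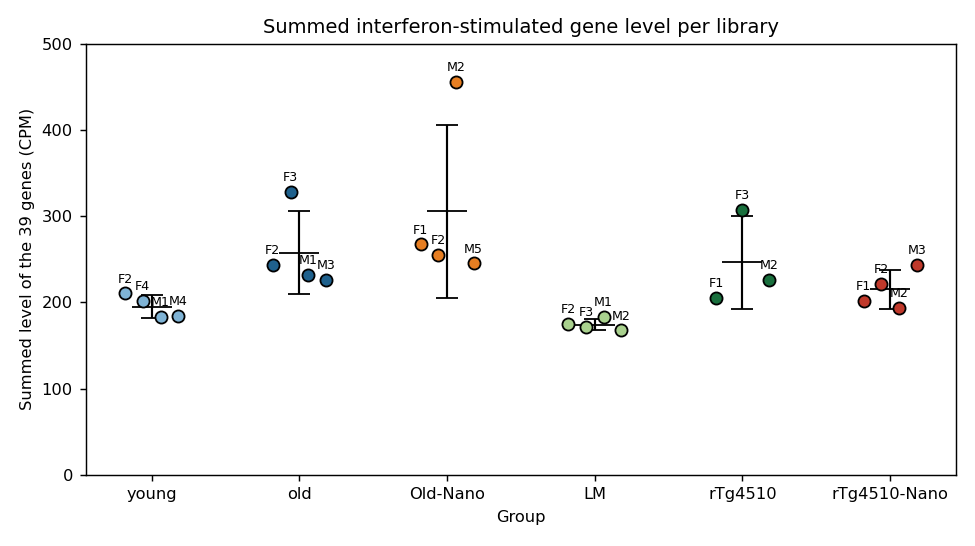
Summed level of the 39 genes in CPM (vertical axis, from 0) for every library (points, with replicate names), by group, with the group mean and SD as bars. The 4 LM libraries lay between 167 and 184 CPM, and Old-Nano M2 reached 456 CPM.

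Old mice were compared with young mice to see how these genes stood with age. In the old hippocampus 34 of the 37 members tested were higher, with a median log2 fold change of 0.52 beside -0.024 over all 15335 genes tested. No member passed an adjusted p of 0.05 in edgeR, where 0.013% of all genes were called higher. At an unadjusted p under 0.05, 13 members were higher and 0 lower, against 6.27% of all genes higher. That count was 7 without old F3, with a median of 0.32, and 8 without young M1. DESeq2 called 1 member higher, Xaf1, against 1.17% of all genes. Every old library stood above every young library for 6 members, Xaf1, Lgals3bp, Sp100, Ifi35, Dhx58 and Rtp4, against 4.51% of all genes tested. Microglia markers ran from 417 to 513 CPM in young and from 406 to 801 CPM in old mice, and 11 of 12 were higher in old mice with a median log2 fold change of 0.36 and 4 at an unadjusted p under 0.05. Endothelial markers were higher for 10 of 13, with 4 at an unadjusted p under 0.05, and astrocyte markers for 6 of 8, with 4 at that level. Neutrophil and monocyte markers were higher for 3 of 3 (median 2.59), striatum markers for 7 of 7 (median 2.82) and hepatocyte markers for 0 of 14 (median -1.17). Striatum markers summed to 1080 CPM in old M1 and to 71 to 93 CPM in the other old libraries. Hepatocyte markers were uneven within both groups. They summed to 831 (F4), 455 (M4), 108 (F2) and 5.74 CPM (M1) in young mice. In old mice they summed to 594 CPM in F3 and to 7.89 to 113 CPM in the other libraries. With the hepatocyte score in the fit, chosen after seeing the data, 14 members had an unadjusted p under 0.05. Without the libraries with markers of other brain regions 11 did. Shares over all genes were not counted in these fits. The part of the microglia, endothelial, astrocyte and blood cell markers was not tested.

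Xaf1, which encodes a binding partner of the apoptosis inhibitor Xiap, had the smallest p. It was at 1.82, 2.18, 3.09 and 3.22 CPM in young and at 3.66, 5.35, 6.902 and 7.93 CPM in old mice. All old libraries were above all young ones, and the log2 fold change was 1.21 ± 0.295 (SE; edgeR adjusted p = 0.333, DESeq2 adjusted p = 0.0260). Lgals3bp, a secreted glycoprotein that binds galectins, was at 13.5, 16.4, 17.3 and 17.8 CPM in young and at 21.4, 23.1, 25.3 and 36.9 CPM in old mice. Its groups did not overlap either, with a log2 fold change of 0.71 ± 0.185 (edgeR adjusted p = 0.351). Without old F3 the fold change was 1.04 for Xaf1 and 0.52 for Lgals3bp.

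The sensors of viral RNA were led by Ifih1, which encodes Mda5 and binds long double-stranded RNA. It was at 3.77, 4.12, 4.18 and 4.24 CPM in young and at 4.098, 6.96, 7.597 and 9.74 CPM in old mice, with only old M1 inside the young range (log2 fold change 0.79 ± 0.246, edgeR adjusted p = 0.381). Old M1 also carried olfactory bulb and striatum markers, at 397 and 1080 CPM. Dhx58, which encodes the related regulator Lgp2, differed by 0.65 ± 0.219 (edgeR adjusted p = 0.396), and its groups did not overlap. Ddx58, encoding the sensor Rig-I, differed by 0.20 ± 0.165, and Eif2ak2, encoding the kinase Pkr that halts translation, by -0.024 ± 0.184. Of the 6 sensors and sensor-linked enzymes tested, 5 were positive and 2 had an unadjusted p under 0.05.

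Of the transcription factors, Irf8, which is also a factor of the microglial lineage, was at 4.41, 5.58, 5.87 and 6.05 CPM in young and at 5.95, 7.796, 8.5 and 11.5 CPM in old mice, again with only old M1 inside the young range (log2 fold change 0.62 ± 0.212, edgeR adjusted p = 0.408). Sp100, a component of nuclear bodies, differed by 0.57 ± 0.179 (edgeR adjusted p = 0.383), from 2.71 to 3.699 CPM in young and from 4.13 to 5.701 CPM in old mice. Irf7, which drives later interferon production, differed by 0.62 ± 0.289. The signalling subunit Stat2 was among the more abundant members, at 28.2 CPM on average in young and 26.8 CPM in old mice (-0.079 ± 0.135 on the log2 scale). Irf1 and Irf9 differed by 0.10 ± 0.252 and 0.20 ± 0.196.

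Among the antiviral effectors, Ifit3, of the family that binds foreign RNA ends and its partners, was at 4.22, 4.82, 6.22 and 7.34 CPM in young and at 6.53, 9.11, 12.6 and 13.6 CPM in old mice (log2 fold change 0.89 ± 0.275, edgeR adjusted p = 0.381). Only old M3 lay within the young range. The interferon-inducible GTPases, which attack the vacuoles of intracellular parasites, were positive for 6 of 6 with a median of 0.53, and 3 of them had an unadjusted p under 0.05, Gbp2 (0.60 ± 0.222), Irgm1 (0.40 ± 0.165) and Igtp (0.66 ± 0.283). Isg15, the ubiquitin-like modifier, and Usp18, the protease that removes it, differed by 0.37 ± 0.215 and 0.40 ± 0.428. Ifi35, whose protein pairs with Nmi, differed by 0.63 ± 0.201 (edgeR adjusted p = 0.383). Ifit3 has a close copy, Ifit3b, and Oas1a, Trim30a, the Gbp genes and the Irg GTPases also belong to clusters of related genes, so that their counts depend on how reads matching several copies were handled.

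**Figure D3:**
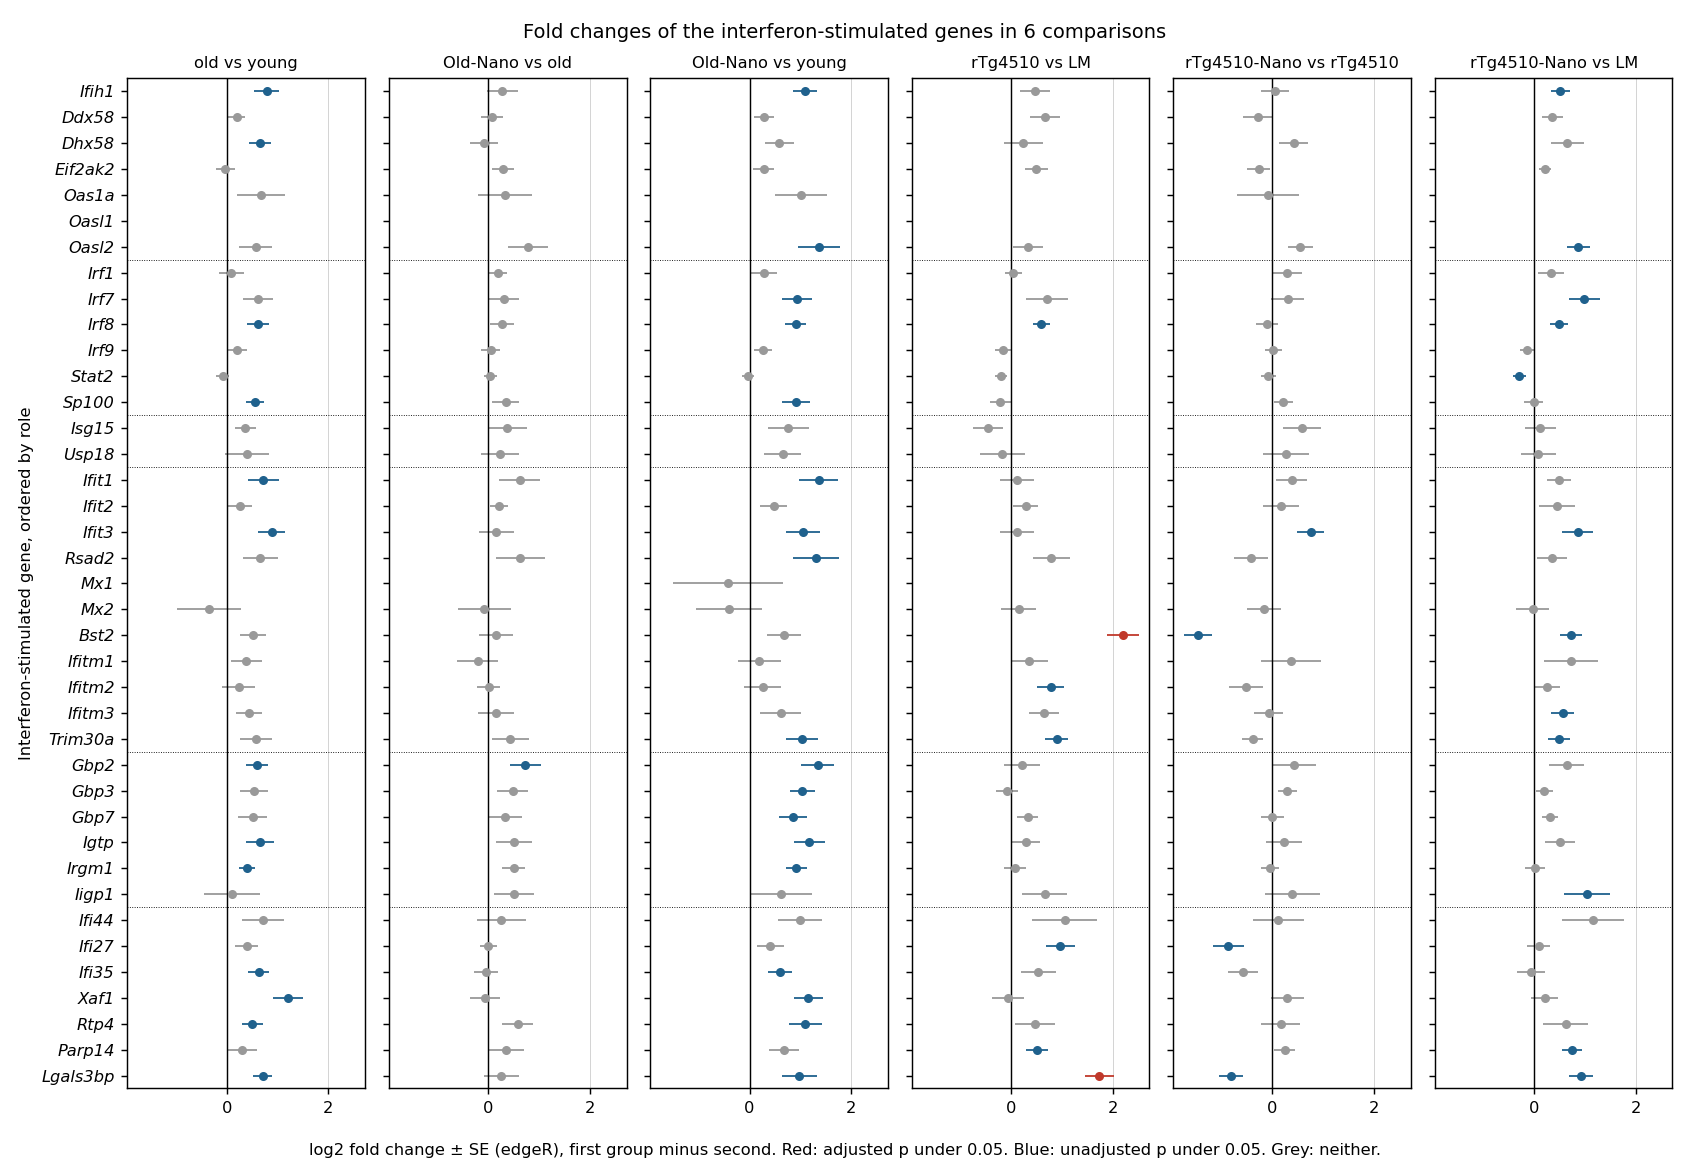
Log2 fold change ± SE (horizontal axis, edgeR) of each tested member (rows) in 6 comparisons (panels), with red for an adjusted p under 0.05, blue for an unadjusted p under 0.05 and grey for neither. Adjusted calls appear for Bst2 (2.20) and Lgals3bp (1.74) in rTg4510 against LM mice, and in no other panel.

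Old-Nano mice were compared with old mice to see how treatment stood in aged animals, using the same old libraries as above. Members were higher in treated mice for 32 of 37, with a median log2 fold change of 0.28 beside -0.0034 over all 15257 genes. Neither edgeR nor DESeq2 called a member, and both called 0% of all genes higher. At an unadjusted p under 0.05 in edgeR 1 member was higher and 0 lower (in DESeq2 3 had an unadjusted p under 0.05), against 0.334% of all genes higher in edgeR. For 0 of 37 members did every Old-Nano library stand above every old library, against 0.249% of all genes. Without Old-Nano M2 the median was 0.019 and 0 members had an unadjusted p under 0.05, without old F3 0.46 and 4, and without both 0.20 and 3. Hepatocyte markers summed to 4 to 38 CPM in Old-Nano and 8 to 594 CPM in old mice. With a score for them in the fit, chosen after seeing the data, 21 members had an unadjusted p under 0.05. The share over all genes in that fit was not counted. Olfactory bulb markers were higher for 0 of 8 (median -3.09), where old M1 held 397 CPM and the other old libraries 27 to 30 CPM. Microglia markers were higher for 11 of 12 (median 0.19). The part of these markers was not tested further.

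The member with the smallest p was Gbp2, a guanylate-binding GTPase. It was at 4.09, 4.53, 4.97 and 6.56 CPM in old and at 5.95, 6.65, 6.66 and 14.4 CPM in Old-Nano mice. Old F3 lay above Old-Nano M5, so that the groups overlapped, and the log2 fold change was 0.74 ± 0.308 (unadjusted p = 0.0410), or 0.35 without Old-Nano M2. Irgm1, an immunity-related GTPase that also takes part in autophagy, was at 7.71, 8.47, 9.45 and 12.1 CPM in old and at 10.1, 10.4, 16.05 and 17.3 CPM in Old-Nano mice (0.51 ± 0.226, or 0.37 without Old-Nano M2). Oasl2, a relative of the enzymes that make 2-5A, was at 4.18, 4.26, 5.59 and 8.55 CPM in old and at 6.44, 6.74, 7.62 and 18.1 CPM in Old-Nano mice (0.78 ± 0.390). Of the 6 GTPases, 6 were positive with a median of 0.51. Of the 8 members with the smallest p-values in old against young mice, Xaf1, Ifi35 and Dhx58 stood close to their old level here. Xaf1 differed by -0.057 ± 0.289, Ifi35 by -0.040 ± 0.236 and Dhx58 by -0.074 ± 0.276 between Old-Nano and old mice. The rest, Ifih1, Irf8, Sp100, Lgals3bp and Ifit3, had higher means in Old-Nano mice, where M2 was the highest library for each. Medians were also higher for Ifih1, Irf8, Sp100 and Lgals3bp. For Ifit3 the median was lower, at 10.9 CPM in old and 8.86 CPM in Old-Nano mice. Lgals3bp was at 19.6, 21.6 and 29.2 CPM in the Old-Nano libraries other than M2. Mean levels in old and Old-Nano mice were 7.10 and 8.66 CPM for Ifih1 and 8.44 and 10.26 CPM for Irf8. They were 4.67 and 5.94 CPM for Sp100 and 26.7 and 32.1 CPM for Lgals3bp. The old libraries enter both comparisons with opposite signs.

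**Figure D4:**
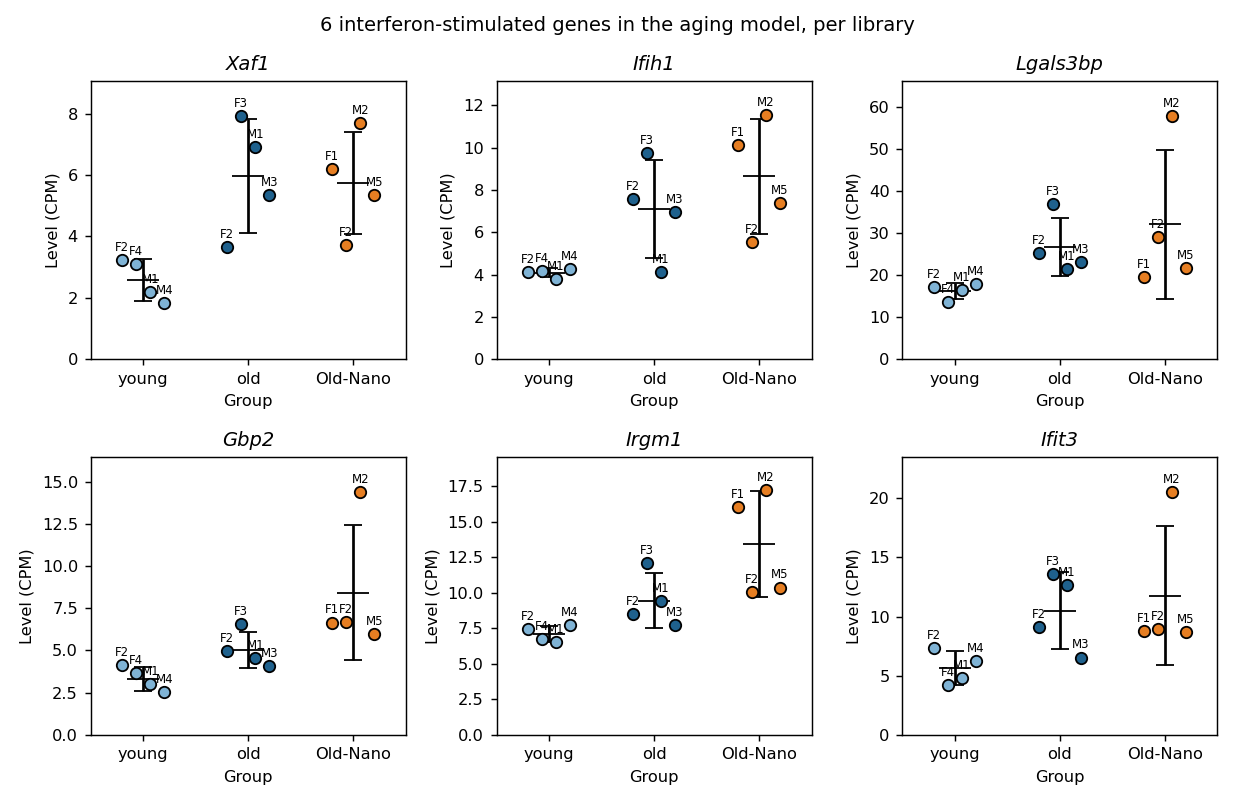
Level in CPM (vertical axes, from 0) of 6 members in every library of the aging model (points), with group mean and SD. Library M2 was the highest Old-Nano library in each panel, and all old and Old-Nano libraries stood above all young libraries for Xaf1.

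Old-Nano mice were also set against young mice, a comparison that combines age and treatment and uses the same young libraries. Here 35 of 38 members were higher, with a median log2 fold change of 0.81 beside -0.016 over 15368 genes. In edgeR 0 members passed the adjusted threshold, against 0.00651% of all genes higher, and 18 were higher and 0 lower at an unadjusted p under 0.05, against 5.95% of all genes higher. DESeq2 called 7 higher, Ifih1, Irf8, Irgm1, Gbp3, Gbp2, Xaf1 and Igtp, against 1.08% of all genes. Every Old-Nano library stood above every young library for 17 members, against 4.1% of all genes. Without Old-Nano M2 the median was 0.44 and 16 members had an unadjusted p under 0.05. Microglia markers were higher in Old-Nano mice for 12 of 12 (median 0.52) and endothelial markers for 10 of 13, with 5 higher at an unadjusted p under 0.05. Larger shifts were those of hepatocyte markers, lower for 14 of 14 at an unadjusted p under 0.05 (median -4.52), and of olfactory bulb markers, lower for 8 of 8 (median -4.73). The hepatocyte markers summed to 5.74 to 831 CPM in young and to 3.97 to 37.6 CPM in Old-Nano mice. The olfactory bulb markers were high in young M4 alone, at 1651 CPM against 30 to 37 CPM in the other young libraries. With the hepatocyte score in the fit, chosen after seeing the data, 24 members had an unadjusted p under 0.05 and the median was 1.14. Without the libraries with markers of other brain regions 19 members had an unadjusted p under 0.05. Shares over all genes were not counted in these fits. The part of the microglia and endothelial markers was not tested.

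Ifih1 was the first of these members, at 5.53, 7.38, 10.1 and 11.6 CPM in Old-Nano mice, all above the highest young library at 4.24 CPM (log2 fold change 1.09 ± 0.237, edgeR adjusted p = 0.380, DESeq2 adjusted p = 0.00858). Irf8 differed by 0.91 ± 0.200 (DESeq2 adjusted p = 0.00956) and Irgm1 by 0.92 ± 0.206 (DESeq2 adjusted p = 0.0128). The GTPases Gbp2, Gbp3 and Igtp differed by 1.34 ± 0.328, 1.04 ± 0.249 and 1.18 ± 0.305, with DESeq2 adjusted p of 0.0177, 0.0210 and 0.0344. Ifit1 was at 1.47, 1.78, 2.02 and 2.405 CPM in young and at 2.995, 3.17, 4.74 and 8.798 CPM in Old-Nano mice (1.36 ± 0.382, DESeq2 adjusted p = 0.0539). These groups did not overlap. Among the members nearest to their young level were Stat2 (-0.027 ± 0.116), Ifitm2 (0.26 ± 0.372) and Ifitm1 (0.20 ± 0.423).

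rTg4510 mice were compared with LM mice to see how the members stood with tau pathology. Bst2 and Lgals3bp rose, and 29 of 36 members were higher, with a median log2 fold change of 0.35 beside -0.0011 over all 15166 genes. The 2 calls in edgeR stand against 0.745% of all genes called higher. DESeq2 called 4 members higher, adding Trim30a and Ifi27, against 3.88% of all genes. At an unadjusted p under 0.05, 7 members were higher and 0 lower, against 8.71% of all genes higher. Without rTg4510 F3 the median was 0.20. Every rTg4510 library stood above every LM library for 6 members, Bst2, Lgals3bp, Trim30a, Irf8, Ifitm2 and Parp14 (8.06% of all genes), and below for 1, Isg15 (5.35% of all genes).

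Bst2 encodes tetherin, a membrane protein that holds budding viruses at the cell surface, and lies on chromosome 8, from 71534255 to 71537456 on the minus strand of GRCm38. It was at 1.46, 1.51, 1.74 and 2.18 CPM in LM mice and at 4.77 (F1), 7.94 (M2) and 11.1 (F3) CPM in rTg4510 mice. The groups did not overlap, with a log2 fold change of 2.20 ± 0.313 (edgeR adjusted p = 0.0304). Lgals3bp, on chromosome 11 from 118392751 to 118402092, was at 7.03, 10.4, 10.7 and 14.98 CPM in LM and at 28.7 (F1), 30.4 (M2) and 49.3 (F3) CPM in rTg4510 mice. Its log2 fold change was 1.74 ± 0.280 (edgeR adjusted p = 0.0463). Both calls were close to the threshold. Without rTg4510 F1, 3 members were called and 12 had an unadjusted p under 0.05, with no share over all genes counted in that fit. With any 1 LM library or rTg4510 M2 left out 0 members passed, and without rTg4510 F3 only Bst2 did (1.88, edgeR adjusted p = 0.0486), while the fold change of Bst2 stayed at 1.88 to 2.47 over the libraries left out in turn. With the F or M letter of the labels in the fit as sex, the edgeR adjusted p was 0.0666 for both genes.

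Choroid plexus markers moved with these genes. The 18 markers, which include Ttr, Kl and Folr1, summed to 4845 (F1), 7028 (M2) and 20278 (F3) CPM in rTg4510 mice, against 50 to 280 CPM in LM and 49 to 132 CPM in rTg4510-Nano mice. Mfrp was at 0 in all 23 libraries and the other 17 markers were detected in each group. Bst2, Lgals3bp and Ifi27 followed the order of the marker sum over the 3 rTg4510 libraries. So did other members that were not called, among them Ddx58, Ifih1, Ifitm3 and Ifi35. Trim30a and Ifitm2 did not, at 2.96 and 8.91 CPM in M2 against 3.05 and 9.20 CPM in F1. An order over 3 libraries cannot tell a link with the markers from chance. With a choroid plexus score in the fit, Bst2 stood at 1.09 ± 1.14 (edgeR adjusted p = 0.744) and Lgals3bp at 0.75 ± 1.005 (edgeR adjusted p = 0.801), neither called, and the members' median was -0.66. The ranges of the marker sum did not overlap between the groups, so that it and genotype cannot be told apart.

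**Figure D5:**
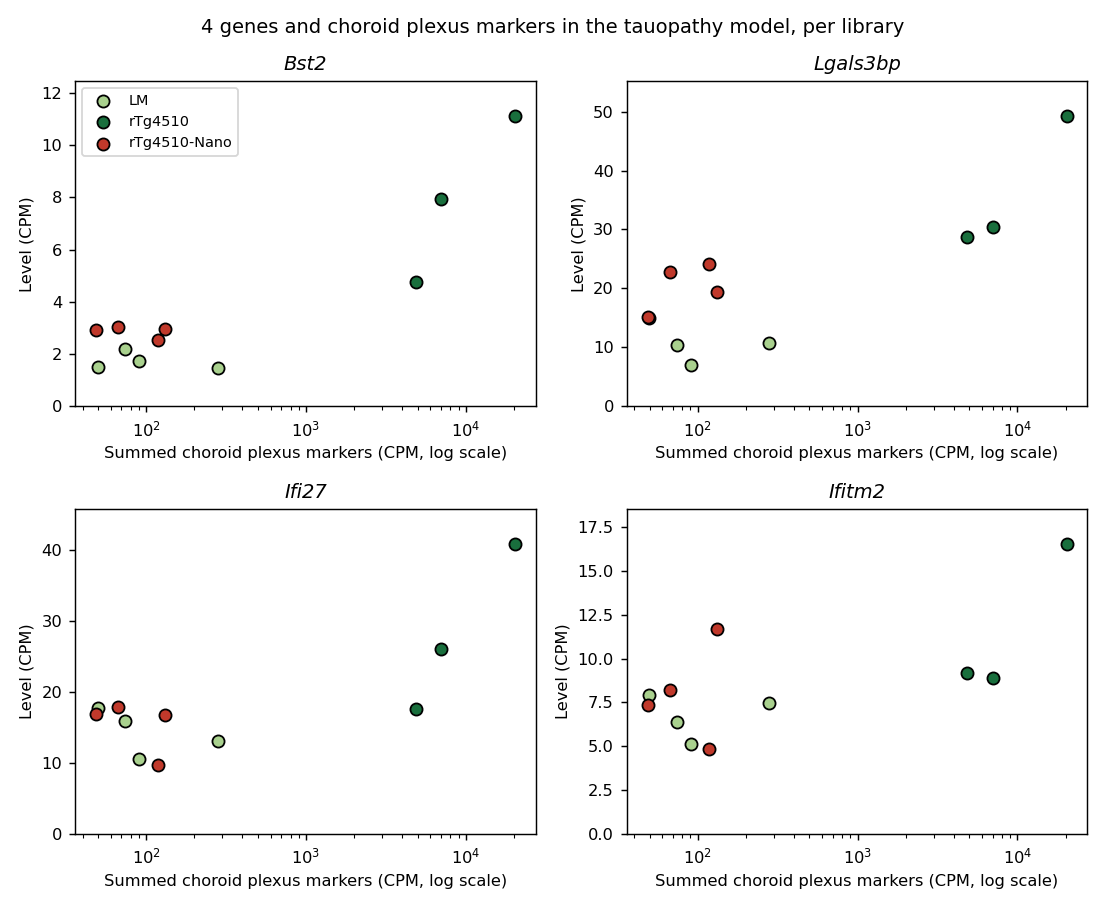
Level in CPM (vertical axes, from 0) of 4 members (panels) against the summed choroid plexus markers in CPM (horizontal axes, log scale) in each tauopathy-model library (points, coloured by group). The 3 rTg4510 libraries lay at 4845 CPM of markers or more, and all LM and rTg4510-Nano libraries at 280 CPM or less.

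Further members with small p-values were of mixed roles. Trim30a, which restrains toll-like receptor signalling, was at 1.51, 1.64, 1.68 and 1.99 CPM in LM and at 2.96, 3.05 and 3.503 CPM in rTg4510 mice (log2 fold change 0.90 ± 0.232, edgeR adjusted p = 0.139, DESeq2 adjusted p = 0.0324). Its groups did not overlap, and with the choroid plexus score in the fit it stood at 0.10 ± 0.777 (edgeR adjusted p = 0.97). Irf8 was at 5.63, 6.07, 6.07 and 6.43 CPM in LM and at 7.33, 9.46 and 10.6 CPM in rTg4510 mice (0.59 ± 0.167, edgeR adjusted p = 0.167), and stood at 0.55 ± 0.637 with the choroid plexus score in the fit. Microglia markers ran from 399 to 491 CPM in LM and from 500 to 710 CPM in rTg4510 mice and were higher for 12 of 12, while hippocampal neuron markers were higher for 1 of 11 (median -0.47) and ependymal markers for 8 of 8 (median 1.06). The part of these markers was not tested. Ifi27, a small membrane protein of mitochondria, was at 10.6, 13.1, 15.99 and 17.7 CPM in LM and at 17.6, 26.1 and 40.9 CPM in rTg4510 mice (0.97 ± 0.293, edgeR adjusted p = 0.198, DESeq2 adjusted p = 0.0302), with the lowest rTg4510 library below the highest LM library. Ifitm2, of a family that stops viruses fusing with membranes, differed by 0.78 ± 0.261 and Ddx58 by 0.66 ± 0.295, and both turned negative with the choroid plexus score in the fit (-0.74 ± 0.785 and -1.18 ± 0.881), as did Ifi27 (-0.18 ± 1.09). Without rTg4510 F3 the fold changes were 0.60 ± 0.239 for Ifi27, 0.43 ± 0.207 for Ifitm2 and 0.38 ± 0.297 for Ddx58. Parp14, an ADP-ribosyltransferase, differed by 0.51 ± 0.213.

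Several classical members stood near their LM level. Ifit1, Ifit3 and Irgm1 differed by 0.12 ± 0.339, 0.11 ± 0.332 and 0.075 ± 0.217 between rTg4510 and LM mice, and Xaf1 by -0.067 ± 0.317. Isg15 was at 1.37, 1.55, 1.56 and 1.74 CPM in LM and at 0.927, 1.14 and 1.34 CPM in rTg4510 mice (-0.45 ± 0.293, unadjusted p = 0.161). The difference between the effects of age and of tauopathy was tested in 1 fit over all groups. It called 0 of 37 members, against 0.677% of all genes, and 4 members had an unadjusted p under 0.05, against 9.71% of all genes. Bst2 came nearest, with an age effect minus tauopathy effect of -1.67 ± 0.430 on the log2 scale (edgeR adjusted p = 0.0868), and Xaf1 leaned the other way (1.28 ± 0.442, edgeR adjusted p = 0.274). The rTg4510 libraries in this test held choroid plexus markers at 4845 to 20278 CPM. The LM, young and old libraries held 280 CPM or less, and the part of these markers was not tested here. Without Old-Nano M2 or without rTg4510 F1, 1 member was called, with no share over all genes counted in these fits.

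rTg4510-Nano mice were compared with rTg4510 mice, using the same rTg4510 libraries as above. Members were positive for 21 of 37, with a median log2 fold change of 0.11 beside -0.0018 over 15358 genes. edgeR called 0, against 0% of all genes higher and 0.0521% lower, and DESeq2 called 1 lower, Bst2, against 1.41% of all genes. At an unadjusted p under 0.05, 1 member was higher (1.13% of all genes) and 3 were lower (4.37% of all genes). For 3 members, Bst2, Lgals3bp and Trim30a, every treated library stood below every untreated library (4.48% of all genes). Microglia markers were positive for 0 of 12, with a median of -0.28, and hypothalamus markers for 8 of 8, with a median of 4.58. Hypothalamus markers summed to 348 CPM in rTg4510-Nano M2 and to 5 to 52 CPM in the other rTg4510-Nano libraries. The part of these markers was not tested. With 1 library left out at a time the members' median ran from 0.0037 to 0.27.

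Bst2 was at 2.53, 2.92, 2.95 and 3.05 CPM in rTg4510-Nano mice, below the lowest rTg4510 library at 4.77 CPM. Its log2 fold change was -1.46 ± 0.278 (edgeR adjusted p = 0.184, DESeq2 adjusted p = 0.00101), and -1.14 without rTg4510 F3. Lgals3bp was at 15.2, 19.4, 22.8 and 24.1 CPM in rTg4510-Nano mice, also below all rTg4510 libraries (-0.81 ± 0.240, edgeR adjusted p = 0.508). Ifi27 differed by -0.87 ± 0.303 (edgeR adjusted p = 0.717), with rTg4510-Nano mice at 9.75 to 17.8 CPM. The high choroid plexus markers of the rTg4510 libraries moved with these differences too. With the choroid plexus score in the fit, the fold change was 0.068 ± 0.915 for Bst2, 1.11 ± 0.559 for Lgals3bp and 0.47 ± 1.09 for Ifi27, so that the direction turned for each. The ranges of the marker sum did not overlap between treated and untreated rTg4510 mice, so that it and treatment cannot be told apart.

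Ifit3 stood the other way, at 2.54, 3.04 and 3.89 CPM in rTg4510 and at 3.68, 5.24, 5.796 and 6.53 CPM in rTg4510-Nano mice (0.75 ± 0.273, edgeR adjusted p = 0.753), where only rTg4510-Nano F1 lay inside the untreated range. Oasl2 differed by 0.55 ± 0.244 and Isg15 by 0.58 ± 0.370. Ifi35, Trim30a and Ifitm2 differed by -0.59 ± 0.292, -0.39 ± 0.210 and -0.52 ± 0.328, and of these Ifi35 and Ifitm2 turned positive with the choroid plexus score in the fit. The test of whether treatment acted differently in old and in rTg4510 mice called 0 of 37 members, against 0.345% of all genes, and 3 had an unadjusted p under 0.05, against 4.04% of all genes. Bst2 led, with an effect in old mice minus that in rTg4510 mice of 1.60 ± 0.425 (edgeR adjusted p = 0.204). Without rTg4510 F1, 1 member was called, with no share over all genes counted in that fit. The untreated rTg4510 libraries in this test held choroid plexus markers at 4845 to 20278 CPM. The rTg4510-Nano, old and Old-Nano libraries held 132 CPM or less, and the part of these markers was not tested here.

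rTg4510-Nano mice were last set against LM mice, where neither group carried high choroid plexus markers. Members were higher for 31 of 36, with a median log2 fold change of 0.47 beside 0.014 over 15191 genes. edgeR and DESeq2 called 0 members (0% of all genes higher in edgeR). At an unadjusted p under 0.05, 11 members were higher, against 4.08% of all genes, and 1 was lower, Stat2, against 3.96% of all genes. For 6 members, Oasl2, Lgals3bp, Parp14, Bst2, Irf7 and Ifit1, every rTg4510-Nano library stood above every LM library (2.38% of all genes). Without rTg4510-Nano M3, which held pituitary markers at 1808 CPM, the median was 0.26 and 5 members had an unadjusted p under 0.05. The LM libraries are those compared with rTg4510 mice above.

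Oasl2 was at 2.08, 2.65, 3.11 and 3.85 CPM in LM and at 4.39, 5.34, 5.599 and 6.01 CPM in rTg4510-Nano mice, with no overlap (0.87 ± 0.221, edgeR adjusted p = 0.611, DESeq2 adjusted p = 0.0568). Lgals3bp differed by 0.92 ± 0.235 (DESeq2 adjusted p = 0.0554) and Bst2 by 0.73 ± 0.214 (DESeq2 adjusted p = 0.208). With the choroid plexus score in the fit these stood at 0.90 ± 0.250 and 0.75 ± 0.214. The marker sums were low in both groups, at 50 to 280 CPM in LM and 49 to 132 CPM in rTg4510-Nano mice. This fit therefore does not reach the marker levels of the rTg4510 libraries. Irf7 was at 0.781, 1.06, 1.601 and 1.79 CPM in LM and at 2.16, 2.36, 2.96 and 2.99 CPM in rTg4510-Nano mice (0.99 ± 0.305). Parp14 (0.74 ± 0.201), Ifit3 (0.86 ± 0.300), Irf8 (0.49 ± 0.177) and Ifih1 (0.52 ± 0.193) completed the 8 smallest p-values, all with an edgeR adjusted p of 0.611. Microglia markers were higher for 8 of 12 with a median of 0.053. Hypothalamus markers were higher for 8 of 8 with a median of 3.07, and were at 348 CPM in rTg4510-Nano M2 alone. Their part was not tested.

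The rest of the pathway was read from lists of its ligands, receptors, kinases, sensors and further induced genes. Of 11 interferon genes in the table, 6 had no count in any library, and the highest level of any was 0.176 CPM. Of 5 receptor chains tested, 0 had an unadjusted p under 0.05 in old against young mice, where Ifnar1 and Ifnar2 differed by -0.12 ± 0.0864 and 0.16 ± 0.101. In rTg4510 against LM mice 3 did, Il10rb (0.66 ± 0.186), Ifnar2 (0.39 ± 0.140) and Ifngr1 (0.25 ± 0.0971), all higher, against 8.71% of all genes higher, and 0 were called. Among 12 genes of Jak and Stat signalling and its inhibitors, Ptpn6, a phosphatase gene of blood and microglial cells, had the smallest p in old against young mice (0.50 ± 0.137) and in rTg4510 against LM mice (0.91 ± 0.174, edgeR adjusted p = 0.0627).

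Interferon-stimulated genes outside the 39 were counted in the same way. In old against young mice 41 of 44 were positive (median 0.41) and 13 had an unadjusted p under 0.05, all higher, against 6.27% of all genes higher. The smallest p-values were those of Zc3hav1 (1.06 ± 0.181), whose protein binds CpG-rich viral RNA, and Oas2 (2.33 ± 0.458), which makes 2-5A, with edgeR adjusted p of 0.299 and 0.302. In Old-Nano against old mice 39 of 47 were positive (median 0.19), and Gbp4 (1.23 ± 0.489) and the chemokine gene Ccl5 (1.09 ± 0.450), whose product attracts T cells, had the smallest p-values. In rTg4510 against LM mice 32 of 39 were positive (median 0.39) and 8 were higher at an unadjusted p under 0.05, against 8.71% of all genes, led by Herc6 (1.01 ± 0.245), the ligase that attaches Isg15 in mice. None of these genes, nor of the receptor and kinase genes, passed an adjusted p of 0.05 in edgeR in any of the 6 comparisons.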

How the data were processed

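Poly(A) RNA of the hippocampus was sequenced in 24 libraries, 23 of them distinct. Reads were trimmed (fastp) and mapped to mm10 (STAR) by the authors, who deposited whole-number counts per gene symbol. How reads were assigned to genes, and whether by strand, was not found in the sources read. Without strand, reads of members whose exons overlap another gene, such as Dhx58 and Ifi35, cannot be told from those of the partner.

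Separate fits were made for each comparison in edgeR 4.0.16 (R 4.3.3; TMM scaling, robust quasi-likelihood test, two-sided, Benjamini-Hochberg threshold of 0.05), keeping genes whose normalized counts averaged 10 or more. Every p-value measures the spread between these libraries. DESeq2 1.42.0 served as an alternative. Standard errors were taken from the F statistic. Other alternatives were scaling, filters, sex, a replicate block, marker scores and each library left out. The fit was tested on simulated data. Promoters came from RefSeq and loci from GENCODE (GRCm38), read with Python 3.11.15.

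The members and lists were chosen with earlier results of these data known. Any member could be named, with adjusted p for those past a threshold in either tool and the 8 smallest p-values per comparison, and up to 4 genes of each other list.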

Additional observations from a re-analysis of the deposited data

Results flagged for a closer look

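Of 120 sets of values examined, 11 had a library apart from the other libraries of its group of 4 by Dixon's test. Chance alone gives about 1 such group in 20 where the sets are independent. These sets were not independent, since Old-Nano M2 was the highest of its group for all 39 genes. In Old-Nano M2, high values were 20.6 CPM for Ifit3, 4.10 CPM for Ifi35, 14.4 CPM for Gbp2, 18.1 CPM for Oasl2, 9.13 CPM for Bst2 and 7.36 CPM for Irf7. The other Old-Nano libraries had 8.69 to 8.90 CPM for Ifit3 and 3.86 to 4.03 CPM for Bst2. In LM mice, Ifih1 was high in M2 at 4.63 CPM and Gbp3 was low in F3 at 3.28 CPM. In rTg4510-Nano mice, M3 was high for Ifi35 at 2.76 CPM and for Parp14 at 7.31 CPM, and M2 was low for Ifi27 at 9.75 CPM.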

How the results depend on the processing

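Other scaling, a stricter filter, no filter and leaving out the libraries with markers of other brain regions moved no count of members by over 1.5 times, except the number at an unadjusted p under 0.05 in Old-Nano against old mice. That number, 1, was 2 with DESeq2 size factors, 2 with no filter, 0 with sex, 2 with 3 groups in 1 fit, 0 without the other-region libraries and 3 in DESeq2, and, in alternatives chosen after seeing the data, 21 with the hepatocyte score and 3 without old F3 and Old-Nano M2. Shares over all genes are given for the main fits and for DESeq2 only. DESeq2 called 1 member in old against young, 7 in Old-Nano against young, 4 in rTg4510 against LM and 1 in rTg4510-Nano against rTg4510 mice. With 3 groups in 1 fit the count at an unadjusted p under 0.05 was 8 in old against young and 11 in rTg4510 against LM mice, and 1 member was called in rTg4510-Nano against rTg4510 mice. In rTg4510 against LM mice 0 were called with sex and 0 with the choroid plexus score, which left 2 at an unadjusted p under 0.05 and moved the median to -0.66, Ifi27 to -0.18, Ifitm2 to -0.74 and Ddx58 to -1.18. In rTg4510-Nano against rTg4510 mice it moved the median to 1.05, Bst2 to 0.068, Lgals3bp to 1.11, Ifi27 to 0.47, Ifi35 to 1.25 and Ifitm2 to 1.37. With this score the SE of Bst2 in rTg4510 against LM mice rose from 0.313 to 1.14. The marker sum did not overlap between the groups of either comparison, so that these fits cannot tell it from group. The cause of the other changes was not tested.

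Leaving out 1 library at a time gave 7 to 14 members at an unadjusted p under 0.05 in old against young, 0 to 4 in Old-Nano against old, 16 to 21 in Old-Nano against young, 5 to 12 in rTg4510 against LM and 5 to 12 in rTg4510-Nano against LM mice, where the median ran from 0.26 to 0.53. In rTg4510 against LM mice the median ran from 0.20 to 0.48. Adjusted calls ran from 0 to 3 in rTg4510 against LM mice, and from 0 to 1 in each of the 2 tests of a difference between effects. Depth limits the members with few counts, and Oasl1 was tested in none of the 6 comparisons.

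The groups share few replicate numbers, and same-numbered libraries did not deviate together in every pair (correlations from -0.295 to 0.501), so the numbers were not read as pairs. The fit with the replicate block kept only libraries whose number occurred in both groups, 2 per group. Members at an unadjusted p under 0.05 were then 2 in old against young, 0 in rTg4510-Nano against rTg4510 and 3 in rTg4510-Nano against LM mice (median 0.22), and 3 were called in rTg4510 against LM mice. The block and the loss of libraries cannot be told apart in these counts, and shares over all genes were not counted with the block. No paired analysis was possible because only 1 number was shared in Old-Nano against old and against young mice.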
